A study of Mus musculus with 32 samples.

Results

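The genes of oxidative phosphorylation were read in mouse presomitic mesoderm (PSM) cells, the tissue in which the segmentation clock runs, as the subunits encoded by the mitochondrial genome beside those encoded in the nucleus. Members were the rows whose symbol starts with mt-, or with Nduf (a, b, c, s or v and a number), Uqcr or Atp5, or names a subunit of the Cox4 to Cox8 families, with a mean of at least 5 CPM (read counts scaled to library size) over the libraries. There were 90 rows with such a symbol among 21886 rows in all, and 77 reached the level, 6 of the mitochondrial genome and 71 of the nuclear genome. The nuclear members comprise 36 subunits named for complex I, 8 for complex III, 10 for complex IV and 17 for the ATP synthase, complex V. All 77 also passed the filter for testing, which kept 11772 genes. The row just inside the level was Atp5s at a mean of 5.65 CPM, and the row just outside it was mt-Nd6 at 3.99 CPM. The spelling of the rule leaves out Cox4i1, a complex IV subunit, which is given with the other gene lists.

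The study sampled 2 time courses, named Ex4 and Ex5, of PSM derived from a mouse epiblast stem cell line (AES0204) that carries a Hes7-luciferase reporter, Hes7 being a core gene of the segmentation clock. Cells of both courses were plated with Y27632, Activin A and bFGF without IWR-1-endo, were moved to CDMi medium with SB431542, LDN193189, CHIR99021 and bFGF, and later received the same medium with less CHIR99021. Each course has 16 libraries of poly(A) RNA, each from its own dish, frozen from 155 to 405 min in Ex4 and from 165 to 425 min in Ex5. There is 1 library per time and course, so p-values measure the spread of libraries about fitted curves. The course is also the batch, and handling and course cannot be told apart.

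Depth ran from 16.1 to 29.5 M counts per library. All 10 PSM markers exceeded 1 CPM, and their summed level was 3056 to 3753 CPM in Ex4 and 3667 to 4302 CPM in Ex5. Of the markers of other cell types, 3 of 7 epiblast genes exceeded 1 CPM (sums of 264.5 to 374.7 CPM in Ex4 and 222.5 to 297.8 CPM in Ex5), 4 of 5 neural genes (54.3 to 69.4 and 39.1 to 71.5 CPM), 1 of 4 endoderm genes (1.11 to 2.35 and 0.813 to 1.91 CPM) and 1 of 6 lateral and vascular genes (2.71 to 4.45 and 2.29 to 5.56 CPM). In bulk RNA fewer cells of a type and less RNA per cell cannot be told apart.

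Oxidative phosphorylation passes electrons from NADH and succinate through complexes I to IV of the inner mitochondrial membrane, and the ATP synthase uses the proton gradient that results. Complex II is encoded wholly in the nucleus, whereas complexes I, III, IV and V combine subunits made from mitochondrial DNA, transcribed there by a dedicated polymerase as long precursors, with subunits imported from the cytosol. The complexes therefore need products of both genomes, and the nuclear regulators known for these genes include the factors NRF1, GABP (of the ETS family) and YY1.

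The mitochondrial genome encodes 13 proteins, and their rows differed in level by several orders of magnitude. The members were mt-Nd1, mt-Nd2, mt-Nd4 and mt-Nd5, membrane subunits of complex I, mt-Cytb, the cytochrome b of complex III, and mt-Co1, the catalytic subunit of complex IV. The 7 other rows were mt-Nd6 at 3.99 CPM, mt-Co2 at 1.88, mt-Co3 at 0.559, mt-Atp6 at 0.505, mt-Nd3 at 0.0624, mt-Nd4l at 0.0248 and mt-Atp8 at 0.0173 CPM (means over 32 libraries). The table has no row for a mitochondrial ribosomal or transfer RNA. Mitochondrial genes of 1 strand come from shared precursors, so the low rows were set beside the copies that GENCODE M21 (GRCm38) annotates in the nuclear genome. A block of 7 copies lies at chr1:24611535-24616197, 4663 bases on the minus strand, and none of the 7 copies is itself a row of the table. The 5 rows mt-Co2, mt-Atp6, mt-Co3, mt-Nd3 and mt-Nd4l shared over 98% of their bases with it and were all low. mt-Nd4 shared 63.6% and mt-Co1 31.3%, and for mt-Nd1, mt-Nd2, mt-Nd5, mt-Cytb, mt-Nd6 and mt-Atp8 no copy was found in the annotated transcripts. How reads that align to more than 1 place were counted is not given in the sources used here, and the part of the copies in the low rows was not tested. For 2 low rows no annotated copy was found. mt-Nd6 is transcribed from the other strand and is known for little or no poly(A), and mt-Atp8 overlaps the start of mt-Atp6 and lies between mt-Co2 and mt-Atp6. In the chr1 block the copies of mt-Co2 and mt-Atp6 lie 233 bases apart, against 230 bases between the genes themselves. The block thus spans the place of mt-Atp8, and the bases between those copies were not searched.

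The stretches below show why a read from 1 gene can fit both genomes: mt-Co2 and its copy Gm28661 were the same over their first 681 bases, mt-Nd3 and Gm28438 differed by T3C alone over 345 bases, counted from 1 at the first base of mt-Nd3, and mt-Nd4 and mt-Co1 were identical to their copies over 876 and 479 bases. Capitals mark the differing base in mt-Nd3 and its copy, and in mt-Co1 and mt-Nd4 the part inside the identical run, so that the change of case is the edge of the shared sequence. Positions are on GRCm38, and copies are written along their own strand.
mt-Co2 (chrM:7013-7072, plus strand): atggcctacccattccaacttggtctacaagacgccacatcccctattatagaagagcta
Gm28661 (chr1:24615506-24615565, minus strand): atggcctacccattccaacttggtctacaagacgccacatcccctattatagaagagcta
mt-Nd3 (chrM:9459-9518, plus strand): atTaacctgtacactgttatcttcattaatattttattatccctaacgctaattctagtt
Gm28438 (chr1:24613060-24613119, minus strand): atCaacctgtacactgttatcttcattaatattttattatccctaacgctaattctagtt
mt-Co1 (chrM:6364-6423, plus strand): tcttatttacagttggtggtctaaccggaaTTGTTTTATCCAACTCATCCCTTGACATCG
mt-Nd4 (chrM:11013-11072, plus strand): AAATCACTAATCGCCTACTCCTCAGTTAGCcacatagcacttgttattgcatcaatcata

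**Figure D1:**
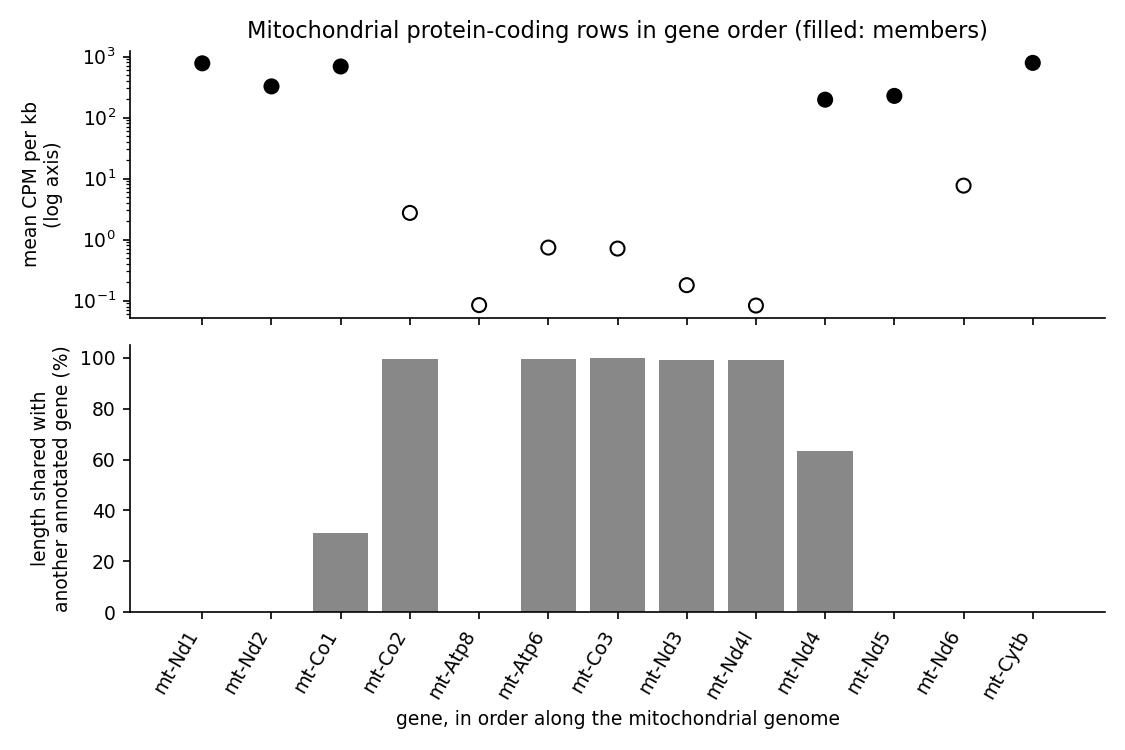
The 13 mitochondrial protein rows in their order along the genome. Points give the mean level in CPM per kb on a log axis (filled for the 6 members), and bars the percent of each gene's length shared with another annotated gene; the 6 members share 63.6% or less, and the 5 rows that share over 98% are all among the low rows.

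Per length, the mitochondrial members were among the more abundant subunits. Their mean levels were 788 CPM per kb for mt-Cytb, 775 for mt-Nd1, 688 for mt-Co1, 324 for mt-Nd2, 227 for mt-Nd5 and 196 for mt-Nd4. Set against the bases outside the shared stretch, mt-Co1 came to 1000 and mt-Nd4 to 539 CPM per kb, so the order among these members depends on how the copies were treated. The nuclear members had a median of 128 CPM per kb and ran from 3.81 for Atp5s, also called factor B, to 1057 for Atp5b. The 5 nuclear members with the highest levels per length were Atp5b, the catalytic beta subunit, Atp5g3 (491 CPM per kb), which encodes the c subunit of the membrane ring, Atp5a1 (433), the alpha subunit, Atp5h (413), a stalk subunit, and Uqcrh (389), the hinge protein of complex III. Atp5h shares 77.6% of its transcript with other annotated transcripts and is uncertain for that reason. The nuclear median was lowest for complex I, at 78.8 CPM per kb, followed by complex III at 167, complex IV at 237 and complex V at 238 CPM per kb.

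Where a subunit has alternative genes, the widely expressed form had the higher level. The muscle or heart forms Cox6a2, Cox7a1 and Cox8b averaged 0.00244, 0.424 and 0.00268 CPM and are not members, whereas Cox6a1, Cox7a2 and Cox8a stood at 197, 306 and 347 CPM per kb. Cox6b2, known as the testis form, was a member at 53.2 CPM per kb beside 286 for Cox6b1. The 3 genes that encode the same c subunit stood at 491 (Atp5g3), 299 (Atp5g2) and 148 CPM per kb (Atp5g1), but Atp5g2 shares 100% and Atp5g1 69.0% of its transcript with other annotated transcripts. Ndufa4, grouped here by its symbol although its protein is known to belong to complex IV, stood at 292 CPM per kb. Its hypoxia-inducible relative Ndufa4l2 stood at 3.21 CPM per kb and, at a mean of 2.98 CPM, was not a member.

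The promoters of the nuclear members were searched for the motifs of their known regulators, in the windows from 250 bases before to 50 bases after the start that RefSeq gives on GRCm38.p6. Of the 71 nuclear members 59 were matched by symbol. The NRF1 letters GCGCATGCG, which on the opposite strand overlap with themselves, occurred on either strand in 8 of the 59 (13.6%), against 1.95% of 27025 genes with a window of this length. The ETS letters CCGGAAG occurred in 14 (23.7%, against 9.93%), the YY1 letters AAGATGGCG in 7 (11.9%, against 1.64%) and any of the 3 in 24 (40.7%, against 12.7%). These are matches of letters and not bound sites, and no test was made of the shares. The 27025 genes were not limited to those tested here, whereas all members passed the filter for testing. The 5 windows below, cut to 60 bases, belong to genes whose levels or slopes are described in the text or hold motifs of more than 1 kind. Capitals mark the motif letters or their reverse complement, and each is written along the strand of the gene.
Atp5g2 (chr15:102671050-102671109, minus strand, NRF1): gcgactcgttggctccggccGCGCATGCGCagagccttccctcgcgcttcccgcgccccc
Atp5l (chr9:44920933-44920992, minus strand, NRF1 and ETS): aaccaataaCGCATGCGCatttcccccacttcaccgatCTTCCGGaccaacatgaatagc
Atp5j (chr16:84835025-84835084, minus strand, YY1 and ETS): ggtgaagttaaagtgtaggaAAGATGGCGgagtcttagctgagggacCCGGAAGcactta
Ndufb6 (chr4:40279612-40279671, minus strand, ETS): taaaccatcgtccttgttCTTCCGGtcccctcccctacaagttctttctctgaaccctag
Uqcrh (chr4:116075071-116075130, minus strand, ETS): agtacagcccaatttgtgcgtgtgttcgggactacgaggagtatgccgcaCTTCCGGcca

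All 6 mitochondrial members were lower in Ex5 than in Ex4, at a median of 0.716 times the Ex4 level. The nuclear members as a group stood at nearly the same level in both courses. The summed level of the mitochondrial members had a lowest, median and highest value of 3241, 4013 and 6724 CPM over the Ex4 libraries and of 2534, 2986 and 4037 CPM over the Ex5 libraries. The ranges overlapped, and 10 of the 16 Ex5 libraries lay below the lowest Ex4 library. The summed level of the nuclear members was 10083, 11321 and 11703 CPM in Ex4 and 10167, 11093 and 11765 CPM in Ex5. As a ratio, the nuclear sum was 2.77 times the mitochondrial sum in the median Ex4 library (1.5 to 3.55) and 3.63 times in the median Ex5 library (2.52 to 4.52).

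**Figure D2:**
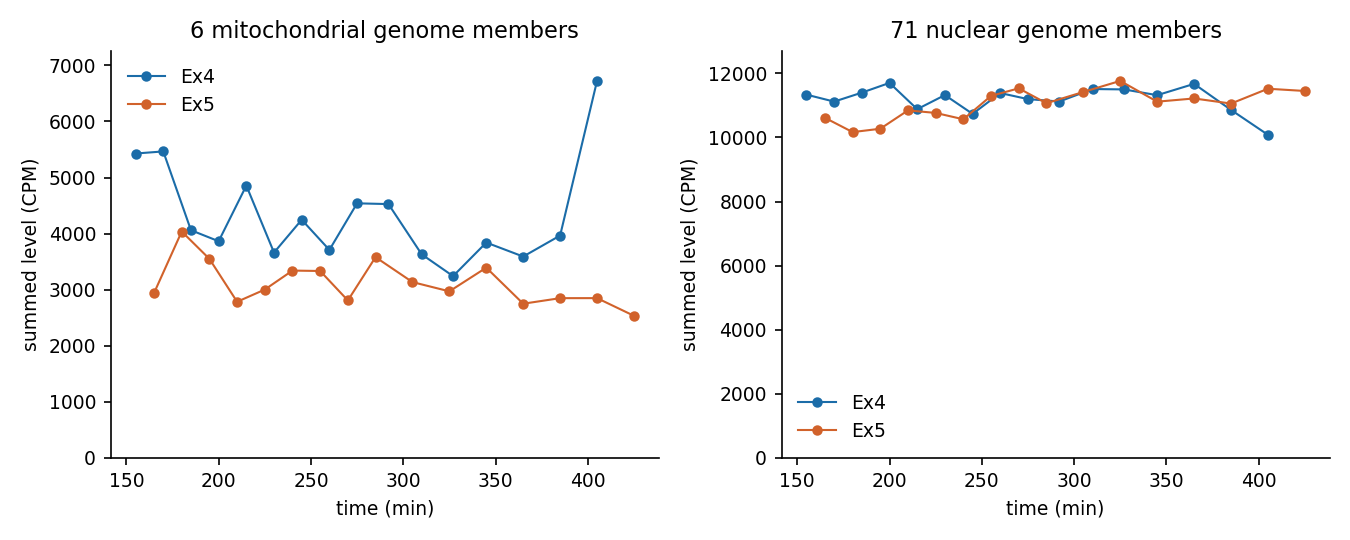
Summed CPM of the 6 mitochondrial members and of the 71 nuclear members against time in minutes, 1 point per library, coloured by course and joined in order of time. The mitochondrial sum is higher in Ex4, with its highest value, 6724 CPM, at 405 min, where the nuclear sum has its lowest, 10083 CPM.

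Level was tested as the difference Ex5 minus Ex4 at 285 min in a model with a slope per course, by edgeR's quasi-likelihood test with Benjamini-Hochberg adjustment over all 11772 genes. Of all tested genes 27.4% were higher and 27.7% lower in Ex5, so a call by itself is common in these data. The 6 mitochondrial members all passed, but they moved together, on the same side of their fitted curves in 22 of 32 libraries. Their calls are therefore not 6 separate results. The largest difference was that of mt-Nd2 (chrM:3914-4951), a complex I subunit, whose lowest, median and highest levels were 302, 387 and 572 CPM in Ex4 and 196, 268 and 352 CPM in Ex5. In 13 of the 16 Ex5 libraries it lay below every Ex4 library. Its log2 difference was -0.58 (SE 0.06, adjusted p = 2.35e-10 by edgeR), 1.5-fold higher in Ex4. mt-Nd1 (chrM:2751-3707) was at 679, 813 and 1382 CPM in Ex4 and 457, 595 and 763 CPM in Ex5, a log2 difference of -0.51 (SE 0.07, edgeR adjusted p = 2.86e-08). Here too 13 Ex5 libraries lay below every Ex4 library.

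mt-Cytb (chrM:14145-15288), the only subunit of complex III made in mitochondria, was at 784, 992 and 1575 CPM in Ex4 and 622, 718 and 945 CPM in Ex5, a log2 difference of -0.49 (SE 0.07, edgeR adjusted p = 4.33e-08). mt-Co1 (chrM:5328-6872) had the smallest difference and the widest spread, at 888, 1118 and 2016 CPM in Ex4 and 779, 873 and 1232 CPM in Ex5. Its log2 difference was -0.39 (SE 0.08, edgeR adjusted p = 5.15e-05), and 8 Ex5 libraries lay below every Ex4 library. The other two, mt-Nd4 (chrM:10167-11544) and mt-Nd5 (chrM:11742-13565), differed by -0.47 (SE 0.06) and -0.45 (SE 0.07) on the log2 scale, with edgeR adjusted p of 5.15e-08 and 3.05e-07.

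The courses share 4 times to the minute, which allow a comparison without a fitted curve. The mitochondrial sum in Ex4 was 1.13 times that in Ex5 at 345 min, 1.31 times at 365 min, 1.39 times at 385 min and 2.36 times at 405 min, and all 6 members were lower in Ex5 at each of these times. The nuclear sum gave ratios of 1.02, 1.04, 0.982 and 0.875 at the same times. The value at 405 min rests on the last Ex4 library, and without it all 6 members were still lower, with a median log2 difference of -0.41 in place of -0.48. With a curved time trend the median was -0.24 and 5 of the 6 passed, mt-Co1 being lost (adjusted p = 0.27 by edgeR). The PSM marker sum was higher and the epiblast sum lower in Ex5, as given above, and their part in the difference was not tested.

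The proportions among the mitochondrial members varied less than their level. mt-Co1 made up 28.5% of the mitochondrial sum in the mean library (25.8 to 31.7%), mt-Cytb 24.2% (22.5 to 25.6%), mt-Nd1 19.9% (18 to 21.6%), mt-Nd5 11.1% (10.3 to 11.8%), mt-Nd2 9.00% (7.72 to 10.2%) and mt-Nd4 7.27% (6.76 to 7.98%). From the lowest to the highest library these shares changed by at most 1.32 times, whereas the levels themselves changed by 2.50 to 3.02 times. As shares of all counts, the members of the mitochondrial genome took 0.323 to 0.681% in Ex4 and 0.249 to 0.410% in Ex5, and the nuclear members 1.02 to 1.18% and 1.03 to 1.15%.

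**Figure D3:**
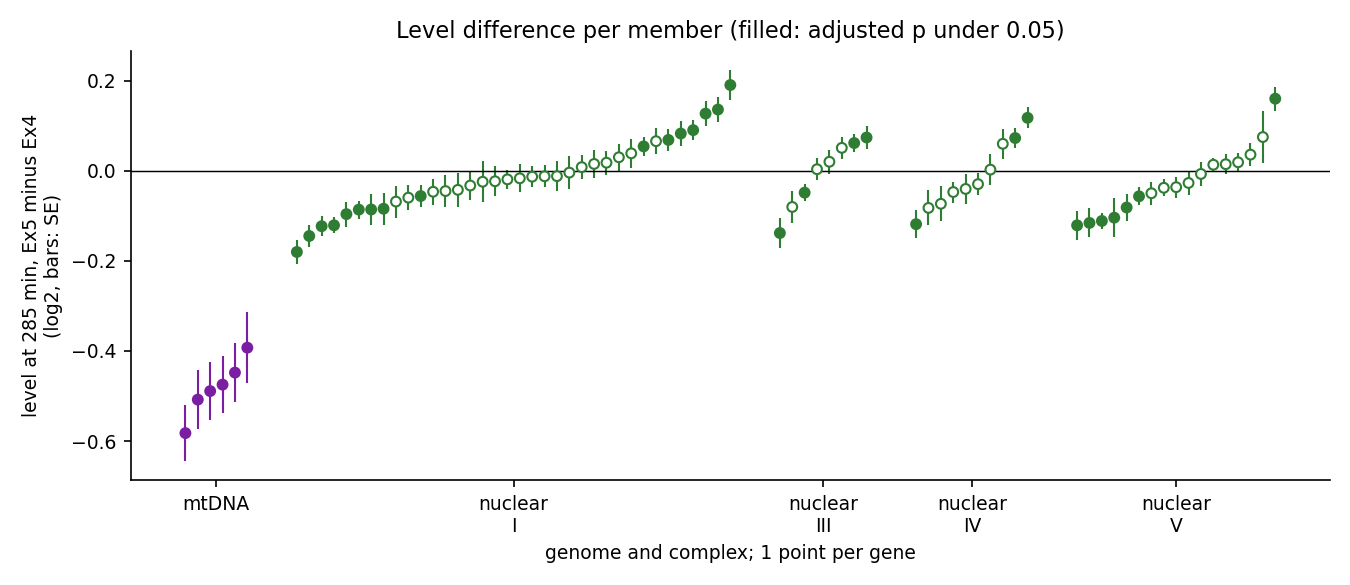
Level difference Ex5 minus Ex4 at 285 min (log2, bars give the SE) of every member, sorted within the mitochondrial genome (purple) and within each nuclear complex (green), filled where the adjusted p is under 0.05. The 6 mitochondrial members lie between -0.58 and -0.39, and the 71 nuclear members between -0.18 and 0.19.

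Among the 71 nuclear members 12 were higher and 18 lower in Ex5, with a median log2 difference of -0.023. These counts are near or below the shares over all genes, and the differences were small. By complex, 7 were higher and 9 lower of the 36 named for complex I, 2 and 2 of 8 for complex III, 2 and 1 of 10 for complex IV, and 1 and 6 of 17 for complex V. The ranges of both courses overlapped in all 77 members, a share that was not counted over all genes. In complex I the largest positive difference was that of Ndufv3, an accessory subunit of the NADH-binding module, at 35.2, 39.6 and 45 CPM in Ex4 and 37.7, 46.4 and 50.9 CPM in Ex5. Its log2 difference was 0.19 (SE 0.03, edgeR adjusted p = 5.64e-06).

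The iron-sulphur core subunits Ndufs7 and Ndufs8 were also higher in Ex5, by 0.14 (SE 0.03, edgeR adjusted p = 0.000113) and 0.13 (SE 0.03, edgeR adjusted p = 0.000227), as was the accessory subunit Ndufa10, by 0.090 (SE 0.02). The accessory subunits Ndufa12, Ndufb6 and Ndufs4 were lower in Ex5, by -0.18, -0.14 and -0.12 on the log2 scale (edgeR adjusted p of 6.84e-07, 5.66e-06 and 1.23e-05).

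In complex III the largest called difference among the genes named was that of Uqcrq, a small subunit, at -0.14 (SE 0.03, edgeR adjusted p = 0.000758). In complex IV, Cox5a, a subunit that faces the matrix, was higher in Ex5 by 0.12 (SE 0.02, edgeR adjusted p = 5.28e-05) and Cox7a2 by 0.072 (adjusted p = 0.00722), while Cox6a1 was lower by -0.12 (adjusted p = 0.00136). In complex V the genes for the c subunit split: Atp5g2 was at 111, 126 and 132 CPM in Ex4 and 119, 141 and 155 CPM in Ex5 and higher by 0.16 (SE 0.03, edgeR adjusted p = 3.41e-06), Atp5g1 was lower by -0.12 (adjusted p = 0.00235) and Atp5g3 differed by 0.02 (adjusted p = 0.454). The share of these transcripts with other loci, given above, limits what the split says of each gene. Atp5l, the g subunit, was lower by -0.12 (SE 0.03, edgeR adjusted p = 0.00139) and shares 57.4% of its transcript with other loci.

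Over time, the mitochondrial members changed little beyond their spread, and the nuclear members changed in both directions by small amounts. The trend is the mean of the slopes of both courses, in log2 per 100 min. All 6 mitochondrial slopes were negative, with a median of -0.063, and mt-Nd2 alone passed the test, at -0.12 (SE 0.04, edgeR adjusted p = 0.0172). This count rests on single libraries: without the last Ex4 library (405 min) all 6 fell, with a median of -0.15, and without the last Ex5 library (425 min) the call of mt-Nd2 was lost (-0.094, edgeR adjusted p = 0.0628).

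Of the nuclear members 6 rose and 6 fell over time, with a median of 0.019, against 26.8% and 26.6% of all tested genes. In complex I, Ndufv3 rose by 0.077 per 100 min (SE 0.02, edgeR adjusted p = 0.00458). The rises of Ndufs5 (0.063, adjusted p = 0.033) and Ndufa11 (0.052, adjusted p = 0.0478) were near the threshold, and Ndufs5 shares 60.8% of its transcript with other loci. Falling members of complex I were Ndufs4 (-0.079, SE 0.02, edgeR adjusted p = 4.78e-05), Ndufb4 (-0.072, adjusted p = 0.0102), Ndufa12 (-0.048, adjusted p = 0.0333) and Ndufs8 (-0.046, adjusted p = 0.0443). Elsewhere Uqcrc1, a core protein of complex III, rose by 0.046 (edgeR adjusted p = 0.00423) and Cox7c, a small subunit of complex IV, by 0.058 (adjusted p = 0.0431).

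The testis form Cox6b2 fell by 0.10 per 100 min (SE 0.03, edgeR adjusted p = 0.00156), and Atp5c1, the gamma subunit that turns in the centre of the ATP synthase, fell by 0.035 (adjusted p = 0.0471). The number of rising members was 3 without any of Ex4 time points 2, 5, 7, 12, 13 or 14 or Ex5 time points 2 or 11 (each left out alone), 10 without Ex4 time point 8, 12 without Ex5 time point 8 or 14, 13 without Ex5 time point 7 and 27 without Ex4 time point 16. The number of falling members was 3 without Ex4 time point 1, 4 or 16 or Ex5 time point 13 or 16. The 6 and 6 are therefore not stable counts, being near the threshold for most of their genes.

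The slopes of the nuclear members differed between the courses: 30 of 71 had a steeper upward slope in Ex5 and 1 a steeper downward slope, where 7.03% and 9.06% of all tested genes did. The difference was positive in 68 of the 71, with a median of 0.083 log2 per 100 min, and in 5914 of all 11772 tested genes. In Ex4 the median slope was -0.028, with 1 member rising and 9 falling, and in Ex5 it was 0.060, with 38 rising and 2 falling. Over all tested genes 1995 rose and 1828 fell in Ex4, and 3042 rose and 2981 fell in Ex5. A slope below 0 in Ex4 and above 0 in Ex5 was found in 52 members, a pattern that was not counted over all genes. All complexes took part, with 11 of 36 steeper in complex I, 5 of 8 in complex III, 5 of 10 in complex IV and 9 of 17 in complex V. None of the 6 mitochondrial members passed this test: the count was 0 by edgeR, DESeq2 and limma-voom, and 0 also at an unadjusted p under 0.05. All 6 differences were negative, with a median of -0.082 (0.050 without Ex4 time point 16). With a correction for GC content and transcript length the median was -0.14 and 1 passed. Their median residual SD about the curves was 0.213, against 0.080 for the nuclear members, so the lack of calls does not show equal slopes.

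The smallest p was that of Ndufb6, an accessory subunit of the membrane arm of complex I, at 52.6, 59 and 63.4 CPM in Ex4 and 47.3, 54.1 and 59.3 CPM in Ex5. Its slope was -0.052 in Ex4 and 0.11 in Ex5, a difference of 0.16 (SE 0.03, edgeR adjusted p = 0.000624). Ndufc2 and Ndufb2, further accessory subunits of that arm, differed by 0.16 (SE 0.04, edgeR adjusted p = 0.00291) and 0.17 (SE 0.04, edgeR adjusted p = 0.00702). Uqcr10, a small subunit of complex III, differed by 0.15 (SE 0.03, edgeR adjusted p = 0.00281), with slopes of -0.070 and 0.077, and Atp5l of complex V by 0.16 (SE 0.04, edgeR adjusted p = 0.00685). Each of these slopes is small: over 100 min they come to changes well inside the range between the lowest and highest libraries. The member that went the other way was Cox6b2, at -0.15 (SE 0.05, edgeR adjusted p = 0.0314).

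**Figure D4:**
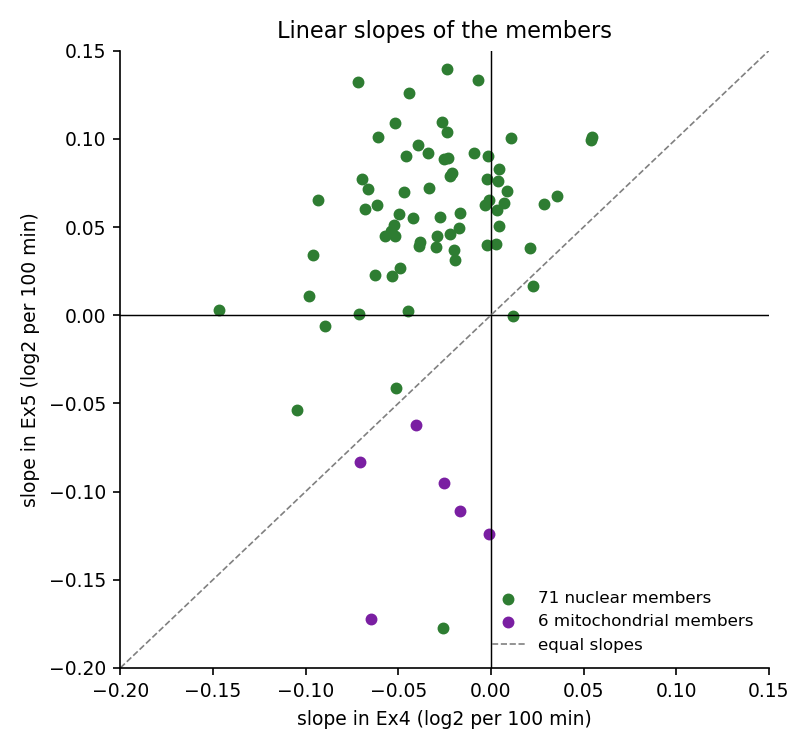
Slope in Ex5 against slope in Ex4 (log2 per 100 min), 1 point per member, with a dashed line where both slopes are equal. Of the 71 nuclear members 52 have a negative slope in Ex4 and a positive slope in Ex5.

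The count of 30 rests on few libraries and changes with a correction for GC content and transcript length. Without Ex4 time point 16 it was 7, without Ex5 time point 2 it was 17 and without Ex5 time point 3 it was 18. With a correction for GC content and transcript length in each library it was 4, with Ndufb6 at 0.078 (edgeR adjusted p = 0.0484). The nuclear members are short, with a median transcript of 714 bases against 2944 over all tested genes. Over all genes under 500 bases the median slope difference was 0.11 and 38.8% were steeper upward, and over genes above 4000 bases the median was -0.033 and the share 2.55%. Split by length, 70.0% of 10 nuclear members under 500 bases were steeper upward, against 38.8% of all 67 genes of that length. The shares were 46.2% of 39 members against 23.0% of 631 genes from 500 to 1000 bases. From 1000 to 2000 bases they were 21.1% of 19 members against 11.4% of 2542 genes. The genes of each length include the members, and the numbers of members are small. The part of length and of RNA quality in the slope difference was not tested.

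Deviations from the fitted curves set the genomes apart in single libraries. The residual SD was 0.200 to 0.255 (log2) for the mitochondrial members, with a median of 0.213, each above at least 99.47% of the 2474 tested genes over 100 CPM, whose median was 0.0608. For the nuclear members the median was 0.080 (0.032 to 0.152). All 6 mitochondrial members lay on the same side of their curves in 22 of 32 libraries, above in 10 and below in 12. The mean residuals of the mitochondrial and the nuclear members had opposite signs in 26 of 32 libraries.

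The mean residual of the nuclear members had the same sign as a difference between short and long other transcripts. In each library the median residual of 3680 other genes above 4000 bases was subtracted from that of 645 other genes under 1000 bases, and the sign of this difference was the sign of the nuclear members' mean residual in 32 of 32 libraries and of the mitochondrial members' in 6 of 32. The difference ran from -0.153 to 0.114. The lowest value was that of the last Ex4 library (405 min), which also had the highest mitochondrial level, with mt-Co1 at 2016 CPM against 1109 CPM in the library before it, and the lowest nuclear level, with 6 of 71 nuclear members above their curves. Its mean residual was 0.60 for the mitochondrial and -0.13 for the nuclear members. Cytosolic ribosomal proteins, also short transcripts, had their lowest share of counts there, 7.47%. The part of transcript length in these deviations was not tested.

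**Figure D5:**
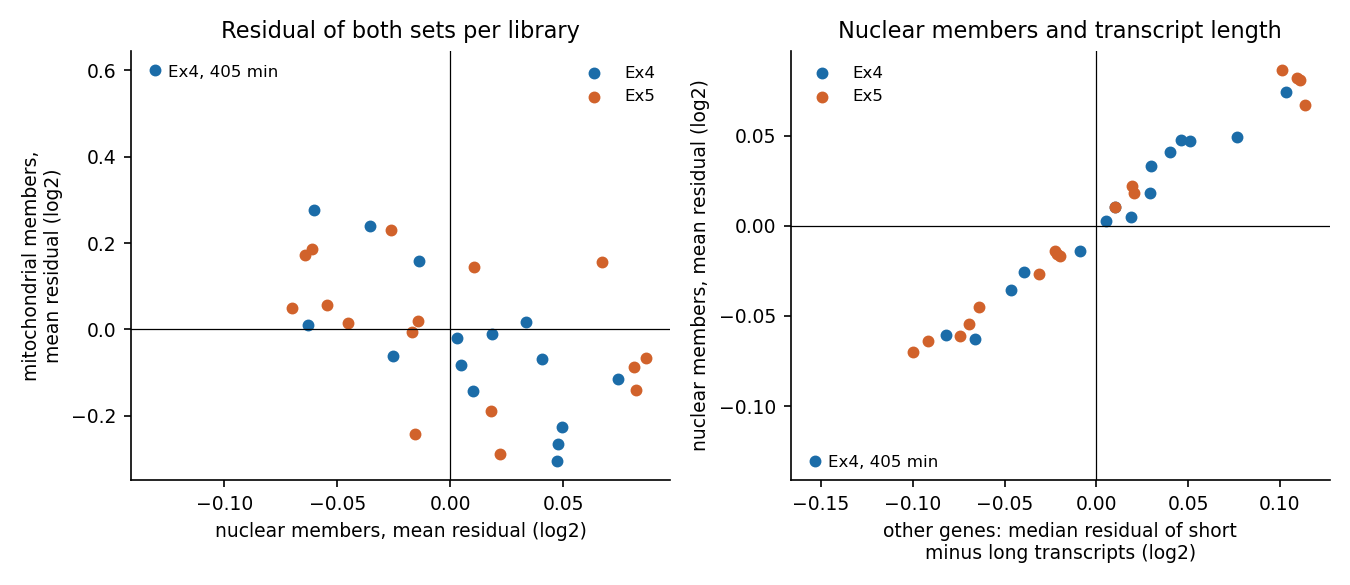
Mean residual (log2) per library, coloured by course: left, mitochondrial against nuclear members, opposite in sign in 26 of 32 libraries; right, nuclear members against the median residual of short minus long other transcripts, of the same sign in 32 of 32. The last Ex4 library, at 405 min, is marked in both plots and stands at 0.60 and -0.13.

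Rhythm with the clock was tested at a period of 135 min, taken with its phase from Hes7. A rhythm was called for 1 of the 77 members (edgeR), against 1.32% of all tested genes. This was Ndufb8, an accessory subunit of the membrane arm of complex I, at 83.3, 99.7 and 113 CPM in Ex4 and 81.6, 102 and 111 CPM in Ex5. Its peak stood 1.12-fold above its trough (log2 0.16, SE 0.04, edgeR adjusted p = 0.0415), 0.909 min from the Hes7 peak. The call was lost when any of 18 of the 32 libraries was left out (Ex4 time points 1, 2, 3, 4, 6, 9, 12, 13, 14 and 16, and Ex5 time points 1, 2, 4, 5, 7, 9, 15 and 16) and there were 2 called members without Ex5 time point 10. None of the mitochondrial members was called by edgeR, 3 having an unadjusted p under 0.05, and DESeq2 and limma-voom called 1 member each in all, Ndufb8. The largest log2 difference from peak to trough was that of mt-Co1, at 0.33 (SE 0.11, edgeR adjusted p = 0.263).

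No member differed in rhythm between the courses by edgeR, DESeq2 or limma-voom (0 each), and 0% of all tested genes did by edgeR. At an unadjusted p under 0.05 there were 6 nuclear and 0 mitochondrial members. The smallest p-values were those of Ndufs7, Atp5mpl and Ndufs6, with an edgeR adjusted p of 0.858 for each.

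The other gene lists of the pathway were counted with the same tests, and their counts stand beside the shares over all tested genes: 26.8% rose and 26.6% fell over time, 27.4% were higher and 27.7% lower in Ex5, and 7.03% had a steeper upward and 9.06% a steeper downward slope in Ex5. No list was tested against other genes. Among 5 genes for complex II and cytochrome c, 2 rose over time, the complex II subunits Sdhb (0.060, edgeR adjusted p = 0.00165) and Sdhc (0.035, adjusted p = 0.0311), none fell, and 1 was lower in Ex5. Of 46 assembly factors 4 rose and 14 fell over time, with a median of -0.031, the falling share being near that over all genes. The largest rises included Surf1 (0.10), which acts in complex IV assembly, and the largest falls Ndufaf4 (-0.13), of complex I assembly, with Cox19 (-0.12) and Sco2 (-0.12), both of complex IV assembly. Cox4i1, the usual form of a complex IV subunit that the rule does not take in, averaged 356 CPM with a trend of 0.025, which did not pass (edgeR adjusted p = 0.164).

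Of 17 genes for mitochondrial DNA maintenance and transcription 2 rose over time and 7 fell, among them Mterf1b (-0.25), Mterf1a (-0.16) and Tefm (-0.14), which acts in transcript elongation. The 2 Mterf1 genes are near copies of each other, so reads between them are uncertain. Of 19 genes for mitochondrial RNA processing 2 rose and 8 fell. Grsf1, an RNA-binding protein of mitochondrial RNA granules, averaged 624 CPM, fell by 0.33 per 100 min (SE 0.02, edgeR adjusted p = 1.6e-18) and was lower in Ex5 by -0.41 (edgeR adjusted p = 2.03e-17). In this list 3 genes were higher and 3 lower in Ex5.

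Of 78 mitochondrial ribosomal proteins 12 rose and 10 fell over time, 11 were higher and 21 lower in Ex5, none of these counts above the share over all genes, and 20 had a steeper upward slope in Ex5, none a steeper downward one. The 80 cytosolic ribosomal proteins, taken as other short and abundant transcripts, had 25 steeper upward and none steeper downward, and 75 were higher in Ex5, by a median of 0.18. Of 23 import genes 7 rose, led by Timm50 (0.14) of the inner membrane translocase, and 4 fell, led by Tomm34 (-0.13). Of 8 nuclear regulators 4 rose, including Esrra (0.10), Nrf1 (0.043) and Yy1 (0.041), and 3 fell, including the coactivator Ppargc1b (-0.39) and Gabpa (-0.057).

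The list of hypoxia-inducible and mitophagy genes moved with the course: 11 of 12 tested were higher in Ex5 and 1, the protease Lonp1 (-0.10), was lower, with a median of 0.73, and 11 rose over time and 1 fell, Egln3 (-0.11). Slc16a3, a lactate exporter, rose by 0.68 per 100 min (SE 0.06) and was higher in Ex5 by 1.59 on the log2 scale. Bnip3, a mitophagy receptor, rose by 0.56 (SE 0.05) and was higher by 0.93. Pdk1, which restrains entry of pyruvate into the citrate cycle, was higher by 1.07. The alternative subunits known to be induced by hypoxia also were: Cox4i2, at a mean of 1.48 CPM, by 2.08 (SE 0.13, edgeR adjusted p = 6.33e-17), and Ndufa4l2 by 1.45 (edgeR adjusted p = 2.51e-17). For their usual counterparts the level difference was -0.040 for Cox4i1 (SE 0.02, edgeR adjusted p = 0.115), which did not pass, and -0.096 for Ndufa4 (SE 0.03, edgeR adjusted p = 0.00363). The oxygen supply of the dishes is not given in the sources used here, and its part in the levels of either genome was not tested.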

How the data were processed

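Raw counts of poly(A) RNA-seq reads per gene symbol were deposited by the authors for 32 libraries. Per the labels' protocols, total RNA was taken with a column kit and libraries with a stranded mRNA kit. Per the submitters' processing notes, bcl2fastq 2.17.1.14, cutadapt 1.14, HISAT2 2.1.0, HTSeq 0.6.1 and the build mm10 were used. The sources used here do not state the annotation, the strand setting or the treatment of reads with several alignments, and overlapping and near-identical genes may share or lose counts.

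Counts were scaled with TMM (edgeR 4.0.16, R 4.3.3), and testing was limited to rows that reached 1 CPM in 16 or more libraries (11772 of 21886 rows, 3706 of which are 0 throughout). edgeR's quasi-likelihood model had a level and a linear slope per course, centred at 285 min, and cosine and sine terms of the Hes7 phase, whose period of 135 min was searched from 90 to 240 min. Trend, level, slope difference, rhythm and rhythm difference were tested with Benjamini-Hochberg adjustment at 0.05 over all tested genes, and the model was tested on simulated data. SEs derive from the F statistic. Alternatives included DESeq2 1.42.0, limma-voom (limma 3.58.1), other filters, periods and time terms, and leaving out each library. Lengths, GC content, positions and copies are from GENCODE M21, promoters from RefSeq. Numbers of time points do not pair the courses (16 pairs of residuals, r from -0.202 to 0.168, 4 over 0.1).

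Members and lists were chosen with earlier results of these data known. Named in the text are all mitochondrial members, and, of the nuclear members past a test, the 6 with the largest change in each direction for trend and level, the 5 with the smallest p for slope difference, those called for rhythm or the 3 with the smallest p, the 5 with most CPM per kb, isoform families and rows by the threshold, with up to 3 genes per direction of other lists. Genes named for level in other lists, Cox6b2 for slope difference and the mitochondrial rows that are not members were added after their values were seen. Of the genes this rule names, 1 is not reported here.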

Additional observations from a re-analysis of the deposited data

Results flagged for a closer look

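The slope of the nuclear members differed between the courses by the test of the difference itself. A steeper upward slope in Ex5 was called for 30 nuclear members and a steeper downward slope for 1. In log2 per 100 min, Ex5 minus Ex4, the 5 members with the smallest p were Ndufb6 (0.16), Uqcr10 (0.15), Ndufc2 (0.16), Atp5l (0.16) and Ndufb2 (0.17), and the 1 member in the other direction was Cox6b2 (-0.15). The count was 7 without the last Ex4 library, 17 and 18 without Ex5 time points 2 and 3, and 4 with a correction for GC content and transcript length, and the part of transcript length was not tested.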

How the results depend on the processing

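All 6 mitochondrial members stayed lower in Ex5 in 12 of 13 alternatives and without any of the 32 libraries, with 5 under a quadratic time term. The number of mitochondrial members falling over time was 0 in Ex4 alone, 4 in Ex5 alone, 0 with the GC and length correction, 6 without the first and last time points and 6 without Ex4 time points 1 and 16 (chosen after seeing the data). Rising nuclear members numbered 11 with quadratic time, 11 at a period of 180 min, 1 in Ex4 alone, 29 in Ex5 alone, 21 without first and last points and 24 without Ex4 points 1 and 16. Falling ones numbered 2 in Ex5 alone, 14 with the correction, 2 without first and last points and 2 without Ex4 points 1 and 16. With the correction 35 nuclear members were lower in Ex5. Steeper upward slopes in Ex5 numbered 46 with quadratic time, 4 with the correction, 5 without first and last points and 7 without Ex4 points 1 and 16, and 1 mitochondrial member differed in slope with the correction. Rhythmic members numbered 0 without a filter, with quadratic or no time terms, at periods of 120, 150 and 180 min, in Ex4 or Ex5 alone, with counts thinned to equal depth and without first and last or Ex4 points 1 and 16, and 2 with the correction. The cause was not tested.

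With each library left out, counts ran from 0 to 6 for falling and 6 to 6 for lower mitochondrial members, 3 to 27 for rising, 3 to 6 for falling, 11 to 14 for higher and 13 to 27 for lower nuclear members, 7 to 37 for steeper upward slopes and 0 to 2 for rhythm. Slope and rhythm differences stayed at 0 for mitochondrial members and for all members, respectively. Of single-member calls under other alternatives 859 stayed past the threshold on the same side, 171 were no longer past it without a change of side, and 4 reversed. The 4 were the trends of Cox7c (-0.015) and Ndufs5 (-0.0031) in Ex4 alone and the slope differences of Atp5h (-0.011) and Atp5mpl (-0.023) with the correction. With libraries left out 2276 stayed past the threshold on the same side, and 316 were no longer past it without a change of side. With a replicate block on time point number, 6 mitochondrial members were lower, and 12 nuclear members were higher and 14 lower; the numbers do not pair the samples. A correction value was had for 99.94% of tested genes and all 77 members. At 16.1 to 29.5 M counts, the mitochondrial rows under 1 CPM rest on few reads.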
